A study of Mus musculus with 2 samples.

Results

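Of the 99797 peaks of an anti-FLAG library from mouse hippocampus, 9782 lay in intergenic sequence more than 100 kb from the transcription start site (TSS) that the authors assigned to them. They are called gene-desert peaks below. They are the rows that the authors' deposited annotation classes as distal intergenic with an absolute distance to the assigned TSS above 100000 bp. They made up 9.80% of all peaks (95% Wilson interval 9.62 to 9.99) and 30.7% of the 31838 distal intergenic peaks.

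The study used CUT&Tag, in which an antibody brings the transposase Tn5, joined to protein A, to the bound protein so that nearby DNA is cut and tagged for sequencing. It holds 1 library made with an antibody against the FLAG peptide tag and 1 control library made with IgG. Both came from untreated hippocampal tissue of C57BL/6J mice with the genotype CamK-PARIS, so the 2 libraries differ in the antibody and share the genotype, and no other genotype is among the samples used here. The labels give no age, no number of animals, no promoter or founder line behind the genotype name, and no replicate.

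PARIS, the protein of the mouse gene Zfp746, is a KRAB-domain zinc-finger repressor that has been reported to bind insulin response sequences and to repress Ppargc1a, the gene of the mitochondrial biogenesis coactivator PGC-1α. Gene deserts are long stretches without protein-coding genes, and they often flank developmental regulators and adhesion genes. Distant enhancers can lie in them, and such enhancers are commonly bound by AP-1, a dimer of FOS and JUN family proteins that neuronal activity induces, by bHLH factors at E-boxes and by the loop anchor protein CTCF.

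The sequences below are windows of 200 bp centred on the region of maximum signal of a peak, read on the plus strand of GRCm38 (the assembly of mm10, from RefSeq). They were chosen because they are the highest gene-desert peaks or carry the words on which the results turn. Capitals mark TGACTCA, the AP-1 word, in the Cenpf and 9530068E07Rik windows. In the windows of Srrm4, Cdh20 and Ppargc1a they mark the insulin response words TATTTTT and TATTTTG, also as their reverse complements AAAAATA and CAAAATA. In the E130006D01Rik and Prok2 windows they mark a tract of at least 20 bases of only C and T or only A and G. The Cenpf window and the end of the Ppargc1a window chr5:51684095-51684294 also hold such a tract, which is left unmarked. The Nxpe4 window, at the highest maximum signal of all gene-desert peaks, holds none of these 3 features.
Nxpe4 chr9:47943039-47943238: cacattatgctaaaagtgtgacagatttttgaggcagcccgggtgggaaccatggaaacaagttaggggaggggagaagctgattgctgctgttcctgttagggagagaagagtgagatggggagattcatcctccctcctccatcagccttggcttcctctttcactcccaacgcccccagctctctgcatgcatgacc
Srrm4 chr5:116840967-116841166: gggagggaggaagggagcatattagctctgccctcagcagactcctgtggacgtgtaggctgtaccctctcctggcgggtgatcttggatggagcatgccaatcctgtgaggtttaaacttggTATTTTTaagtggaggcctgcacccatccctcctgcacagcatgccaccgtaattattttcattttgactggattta
Cenpf chr1:189525540-189525739: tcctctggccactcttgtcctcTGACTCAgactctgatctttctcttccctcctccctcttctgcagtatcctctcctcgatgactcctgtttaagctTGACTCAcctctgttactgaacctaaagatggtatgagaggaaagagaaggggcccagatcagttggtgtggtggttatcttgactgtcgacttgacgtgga
9530068E07Rik chr11:52536841-52537040: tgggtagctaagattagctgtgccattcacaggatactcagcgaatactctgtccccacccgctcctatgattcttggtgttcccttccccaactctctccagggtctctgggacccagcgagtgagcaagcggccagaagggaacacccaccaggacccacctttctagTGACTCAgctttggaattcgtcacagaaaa
E130006D01Rik chr5:111885942-111886141: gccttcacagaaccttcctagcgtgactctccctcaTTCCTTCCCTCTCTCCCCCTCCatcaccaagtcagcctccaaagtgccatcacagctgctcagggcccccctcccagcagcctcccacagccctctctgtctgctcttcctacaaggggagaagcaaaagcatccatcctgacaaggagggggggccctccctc
Prok2 chr6:99844756-99844955: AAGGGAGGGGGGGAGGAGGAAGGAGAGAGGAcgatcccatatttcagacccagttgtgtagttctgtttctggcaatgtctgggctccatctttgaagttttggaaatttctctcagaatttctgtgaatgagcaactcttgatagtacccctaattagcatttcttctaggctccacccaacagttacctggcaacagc
Cdh20 chr1:104227013-104227212: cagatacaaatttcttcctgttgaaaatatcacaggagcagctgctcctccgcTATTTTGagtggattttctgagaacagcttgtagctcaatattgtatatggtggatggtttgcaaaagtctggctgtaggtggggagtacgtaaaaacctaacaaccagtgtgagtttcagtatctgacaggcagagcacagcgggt
Ppargc1a chr5:51684095-51684294: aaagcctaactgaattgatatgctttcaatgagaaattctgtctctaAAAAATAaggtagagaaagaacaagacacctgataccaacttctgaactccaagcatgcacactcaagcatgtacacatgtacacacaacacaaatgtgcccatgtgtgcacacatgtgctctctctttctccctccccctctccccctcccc
Ppargc1a chr5:51186890-51187089: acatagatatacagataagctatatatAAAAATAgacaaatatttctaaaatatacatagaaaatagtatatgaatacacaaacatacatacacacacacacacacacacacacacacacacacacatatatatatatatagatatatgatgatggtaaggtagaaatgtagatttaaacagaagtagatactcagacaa

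Because 1 library was made per antibody, no value below has replicate error and no p-value is given. Intervals are 95% intervals over peaks or windows and cover counting error only. Depth is not given by the files used here, and no file of the IgG library was used. Signal is in the authors' units, as maximum signal (the highest coverage in a peak) or total signal (coverage summed over its bases). The tissue holds many cell types, so fewer cells with a bound site and less binding per cell cannot be told apart. For the labelled tissue, a peak lay within 1 kb of a TSS for 6 of 8 excitatory neuron markers, 2 of 6 astrocyte, 2 of 6 microglia, 1 of 6 oligodendrocyte and 0 of 6 hepatocyte markers. Over all 21911 protein-coding genes the share was 41.6% (40.98 to 42.3), so these few markers are a description and no test of the tissue. Alb and Apoa1, which encode liver plasma proteins, were among the markers without one.

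The distance of the gene-desert peaks from the assigned TSS had a median of 231431 bp and ran from 100019 to 2051110 bp. They lay on both sides of genes, with 49.9% (48.9 to 50.9) upstream of the assigned TSS. Just inside the threshold stood a peak of maximum signal 123 at 100019 bp from Barx2, a homeobox gene, and one of 132 at 100025 bp from B3gat1, which makes a brain glycan epitope. The next 3 inside, at 100039, 100049 and 100055 bp, had 21, 8 and 39. Just outside stood a peak of 165 at 99936 bp from Snx7, followed by peaks of 85, 23 and 121 at 99910, 99907 and 99893 bp and one of 105 at 99871 bp from the neuronal homeobox gene Lhx5.

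The name desert held for most but not all of these peaks. Between the bodies of the nearest protein-coding genes of GENCODE M21, the median interval around a gene-desert peak was 926 kb, and 77.1% (76.3 to 77.96) of 9754 peaks with a gene on both sides lay in an interval of at least 500 kb. A body of a protein-coding gene was within 10 kb of 127 peaks (1.30%, 1.09 to 1.54). Of the 9778 gene-desert peaks on chromosomes 1 to 19, X and Y, 98.1% (97.8 to 98.3) were beyond 100 kb of every protein-coding start. The selection itself asks for more than 100 kb from the assigned TSS, so this share was largely set in advance. A smaller part, 25.5% (24.7 to 26.4), was beyond 100 kb of every start when noncoding genes counted as well. The nearest start of any kind belonged to a processed pseudogene for 40.9% of the peaks, to a lincRNA for 24.9%, to a small RNA for 18.1% and to a protein-coding gene for 5.46%. Within 1 kb of an annotated start lay 146 peaks (1.49%), 56 of them at lincRNA starts. Peaks with a start of any kind within 100 kb and those without had overlapping intervals, with a median maximum signal of 96 (94 to 97) against 94 (92 to 96).

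Peaks became sparser with distance, and the sparsest sequence still held them. Sequence outside transcripts and more than 100 kb from the start of any GENCODE transcript with an Entrez gene entry came to 704.4 Mb. That was 26.6% of the gap-free genome. Of the gene-desert peaks 96.1% lay in it, a share that their selection by distance largely sets. This sequence held 15.2 peaks per Mb against 45.8 in the rest, a ratio of 0.332 (0.325 to 0.339). The density counts every peak placed there, 10706 in all, of which 9398 were gene-desert peaks. Intergenic sequence at 20 to 100 kb from a start held 28.6 peaks per Mb (28.1 to 29.1). From 100 to 200 kb the density was 19.6 (19.02 to 20.2), from 200 to 500 kb 15.3 (14.8 to 15.7), from 500 to 1000 kb 10.9 (10.4 to 11.5), and beyond 1000 kb 8.37 (7.64 to 9.16). Each step down was larger than the counting intervals.

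**Figure D1:**
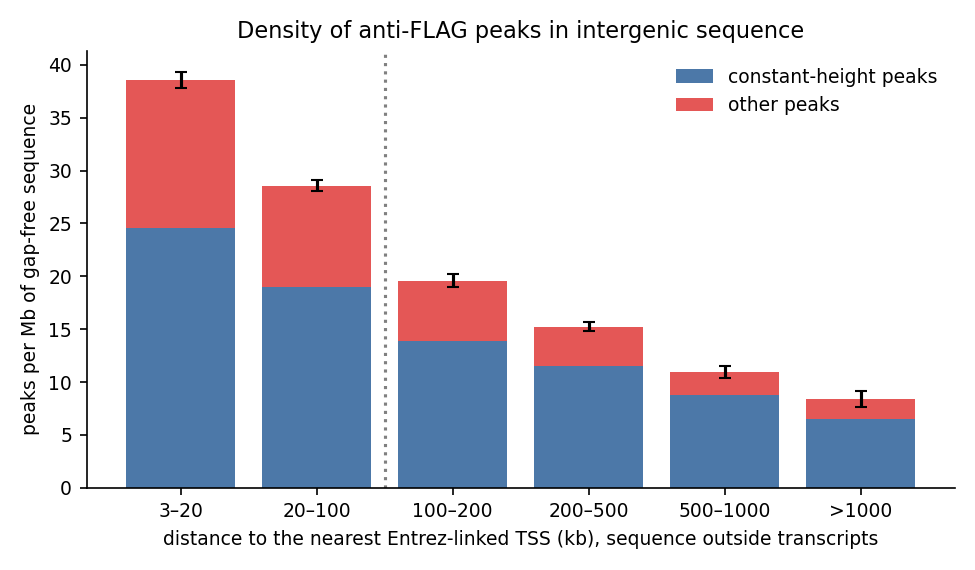
Peaks per Mb of gap-free sequence outside transcripts (y axis) by distance to the nearest TSS in kb (x axis), stacked by peak shape, with exact 95% Poisson intervals of all peaks. The dotted line marks 100 kb. Total density falls from 38.6 per Mb at 3 to 20 kb to 8.37 beyond 1000 kb.

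The lower density held on every autosome. Desert sequence carried 17.3 ± 1.98 peaks per Mb (SD over 19 autosomes), and its density was below that of the rest of the same chromosome on all 19. The range ran from 14.6 peaks per Mb (13.3 to 15.9) on chromosome 14 to 21.7 (19.8 to 23.7) on chromosome 9. The gap to the rest was narrowest on chromosome 13, with 20.4 against 40.1 peaks per Mb (ratio 0.509), and widest on chromosome 11, with 17.7 against 65.9 (ratio 0.268). Chromosome X had 6.08 peaks per Mb of desert sequence (5.44 to 6.77, 333 peaks), below all autosomes, against 15.1 in its remainder. Its 311 gene-desert peaks had a median maximum signal of 86 (78 to 94). Chromosome Y had 0.884 per Mb of desert sequence (0.622 to 1.22, 37 peaks). Its 55 gene-desert peaks, not all of them in that sequence, had a median of 40 (24 to 52). The labels do not give the sex of the mice, so the number of X and Y copies behind these values is not known. How uniquely reads align on X, on Y or far from genes is not given by the files either. Its part in these densities was not tested.

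**Figure D2:**
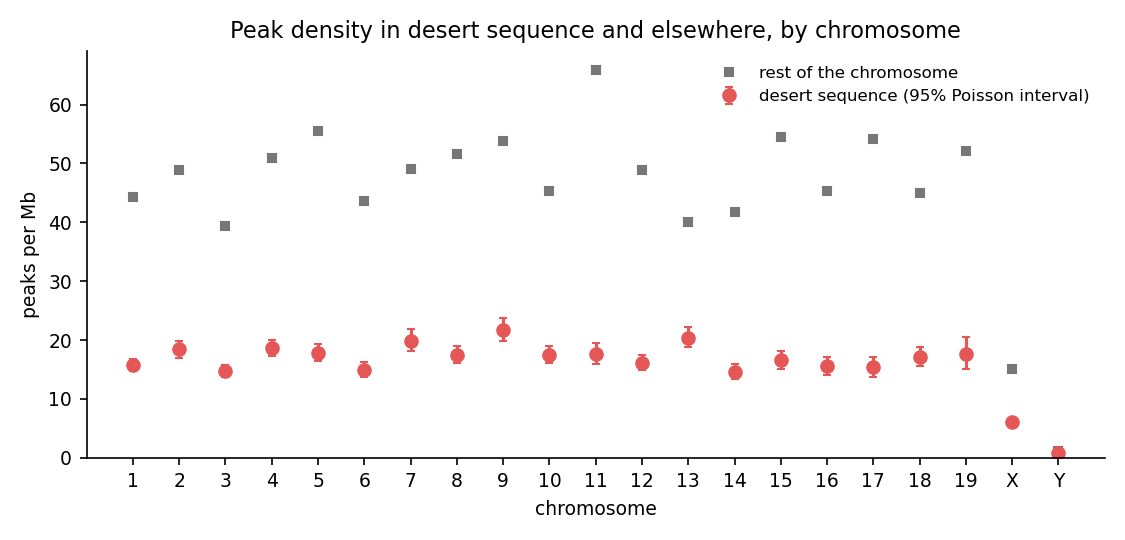
Peaks per Mb (y axis) in desert sequence (circles, with exact 95% Poisson intervals) and in the rest of each chromosome (squares), by chromosome (x axis). All 19 autosomes have fewer peaks per Mb in desert sequence, between 14.6 and 21.7, and X and Y lie lower in both.

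Most gene-desert peaks were blocks of one height. To measure shape, total signal was divided by the area of the rectangle that encloses the peak (its width times its maximum signal), and a peak that fills at least 99% of it is called constant-height. Of the gene-desert peaks 75.01% (74.1 to 75.9, 7337 peaks) were constant-height, against 66.2% of the 12575 distal intergenic peaks at 20 to 100 kb, 63.5% of the 9481 within 20 kb, 51.2% of the 24550 promoter peaks and 63.3% of all peaks. The difference from the 20 to 100 kb class was 8.80 percentage points (7.61 to 9.99). Inside the class the share was 71.5% (70.1 to 72.8) at 100 to 200 kb, 77.0% (75.6 to 78.3) at 200 to 500 kb and 80.1% (77.9 to 82.2) at 500 to 1000 kb. Beyond 1000 kb, in 373 peaks, it was 74.8% (70.2 to 78.9). In intervals of at least 500 kb without protein-coding genes it was 77.0% (76.0 to 77.9), against 68.7% (66.7 to 70.5) in shorter ones.

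The peaks that were not constant-height thinned out faster with distance. Their density fell from 9.61 per Mb at 20 to 100 kb to 1.90 (1.56 to 2.29) beyond 1000 kb, whereas constant-height peaks went from 18.9 to 6.48 (5.83 to 7.17).

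Gene-desert peaks were slightly lower and narrower than other distal peaks. Their median maximum signal was 95 (94 to 96), with quartiles of 60 and 126, against 98 (97 to 99) at 20 to 100 kb and 110 (109 to 111) at promoters. Their median width was 297 bp (291 to 304) against 340 (335 to 347) and 445 (439 to 450). High peaks were the scarcer part. A maximum signal of at least 200 was reached by 424 gene-desert peaks, or 4.33% (3.95 to 4.76), against 6.62% at 20 to 100 kb and 15.0% at promoters. At least 400 was reached by 16 of them. The median fell with distance, from 98 (96 to 100) at 100 to 200 kb through 94 (92 to 96) and 92 (88 to 94) to 85 (79 to 92) beyond 1000 kb.

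The shapes differed in size. The 7337 constant-height peaks had a median maximum signal of 92, never above 200, and a median width of 235 bp, never above 701 bp. The 2445 others had a median of 114, a highest value of 559, a median width of 543 bp and widths up to 2321 bp. Shape is computed from the same signal columns, so these sizes are a description and not an independent measurement.

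**Figure D3:**
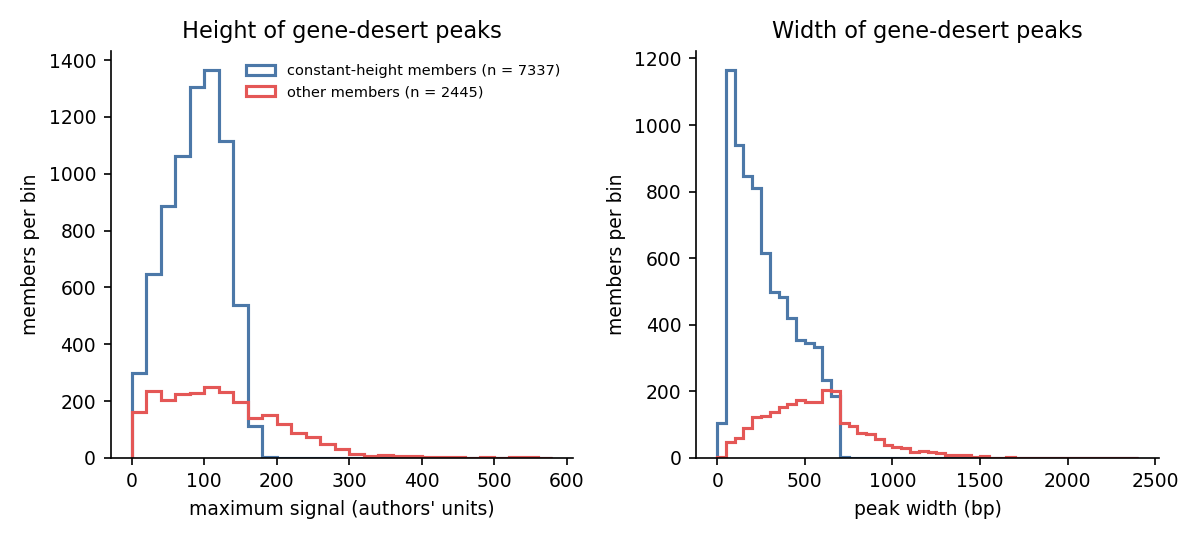
Number of gene-desert peaks per bin (y axes) by maximum signal in the authors' units (left, bins of 20) and by width in bp (right, bins of 50), for constant-height and other peaks. Constant-height peaks end at a maximum signal of 200 and a width of 701 bp, and the other peaks run on to 559 and 2321 bp.

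None of the 10 gene-desert peaks with the highest maximum signal was constant-height, and the words and tracts above stood in some of their windows and not in others. The highest, with a maximum signal of 559 (chr9:47942923-47944019), was assigned to Nxpe4 at -218881 bp (a minus sign marks a position upstream of the TSS) but lay 85286 bp from the body of Cadm1, an immunoglobulin-type synaptic adhesion molecule. A peak of 529 (chr5:116840129-116841800) stood at -249247 bp from the TSS of Srrm4, a splicing regulator of neuronal microexons, and had the highest total signal of the class, 242580. A peak of 546 was assigned to the noncoding gene E130006D01Rik, one of 527 to Mir205, a microRNA gene, and one of 497 (chr4:55125427-55126089) lay 41864 bp past the end of the zinc-finger gene Zfp462. The peak of 492 belonged to Ift57, a ciliary transport gene. The peak of 487 was assigned to the kinetochore gene Cenpf, whose body was 114641 bp away. On its other side Kcnk2, a neuronal background potassium channel, was 123083 bp away. Gm32123 with 481, Gm10440 with 473 and Atp2b1, a plasma membrane calcium pump, with 448 completed the 10. Among all 99797 peaks these ranked between 181 (Nxpe4) and 496 (Atp2b1) by maximum signal.

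By total signal the next after Srrm4 was a peak of 235606 assigned to Ajap1, an adherens junction protein. It lay 3328 bp past the far end of that gene and 113346 bp from its start. A peak of 203349 was assigned to Mir6346 but lay 6493 bp from the body of Gli2, a transcription factor of Hedgehog signalling, and one of 205772, assigned to the myosin gene Myo3a, lay nearer to the brain receptor gene Gpr158, at 87211 bp. The others of the 10 were assigned to Gm32123, Gsc, 9530068E07Rik, Med13l, Rplp1 and Prok2, with 181117 for Prok2, a secreted signalling peptide of the brain. The farthest gene-desert peak stood 2051110 bp from Gm20823 on chromosome Y, with a maximum signal of 20. The next stood 1997986 bp from Lrrc4c, with 81. Both had constant height and summit windows that were mostly soft-masked, at 100% and 61.5% of bases.

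Gene-desert peaks were often alone. Another gene-desert peak lay within 10 kb for 37.7% (36.7 to 38.7), while 55.4% (54.5 to 56.2) of the 20 to 100 kb class had another of their own class that near. The share was 47.3% (45.3 to 49.3) for peaks that were not constant-height and 34.5% (33.4 to 35.6) for those that were. Joining peaks at most 10 kb apart gave 6095 single peaks, 1075 pairs, 255 groups of 3, 91 of 4 and 68 of 5 or more. Peak density is lower in deserts, and its part in these counts was not tested.

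The largest group held 15 peaks in 46.3 kb (chr4:125275369-125321636) between Zc3h12a, an RNase gene that limits inflammatory mRNAs, and Grik3, a kainate receptor subunit. Of these 11 were not constant-height. Maximum signals on the Grik3 side were 219, 270, 226, 177 and 135, and on the Zc3h12a side they ran from 29 to 185. The group of 13 at Tle3, a Groucho family corepressor, spanned 73.3 kb (chr9:61537503-61610762). It was mixed, with values from 10 to 273 and 4 peaks that were not constant-height. A group of 10 between Spring1 and Med13l, a Mediator subunit gene, spanned 33.5 kb (chr5:118393737-118427274). Its highest peaks, 391 and 275, stood at -133747 and -138310 bp from Med13l.

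The gene with the most gene-desert peaks was Lrrc4c. Lrrc4c, a postsynaptic ligand of netrin-G, had 35 (of 63 assigned peaks), spread over 4.08 Mb on chromosome 2, with maximum signals from 6 to 329. Adgrl2, a latrophilin adhesion receptor, and Ajap1 had 30 each. Auts2, a neurodevelopmental regulator, Slitrk5, a synaptic adhesion gene, and Tenm4, a teneurin, had 28 each, Castor2 27, and Brinp3, Cdh20 and Tshz3 26 each. Ajap1 stood apart in shape, with 15 of 30 not constant-height and a median of 128.5. At the other 9 between 4 and 10 were not constant-height, and the medians lay between 78 and 115.5. The counts are not corrected for the length of the desert beside each gene.

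Genes of 3 kinds that flank gene-poor intervals were followed. They were picked for that position, so their share against all genes is a description of where they lie. Of 26 cadherins and non-clustered protocadherins, the calcium-dependent adhesion molecules, 18 had a gene-desert peak (69.2%), with 163 peaks in all, 40 of them not constant-height. Cdh20 had 26, Cdh6 and Cdh9 18 each and Cdh11 15. Of 26 leucine-rich repeat synaptic adhesion genes 14 had one (53.8%), led by Lrrc4c with 35, Slitrk5 with 28 and Slitrk1 with 22. Of 50 neural transcription factors 24 had one (48.0%), among them Tshz3 with 26, Tshz1 with 12 and Sox11 with 10. Over all 21911 protein-coding genes the share was 6.68%. Not constant-height were 23 of the 140 peaks of the leucine-rich repeat genes and 24 of the 125 of the transcription factors. In the whole class 2445 of 9782 were not. The median maximum signal at Tshz3, Tshz1 and Sox11 lay between 83 and 110.5, around the 95 of the whole class.

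Of 6 reported PARIS targets or genes with insulin response sequences, Ppargc1a was the 1 with gene-desert peaks, and it had 15. They made up most of its 18 assigned peaks and ran along 0.742 Mb of chromosome 5. On the upstream side, maximum signals in order of distance were 134 at -103631 bp, 121 at -115511 bp, 107 at -116439 bp, 80 at -154505 bp, 130 at -157157 bp, 38 at -172790 bp, 123 at -208040 bp, 117 at -224665 bp and 168 at -237401 bp. On the downstream side they were 127 at 113846 bp, 153 at 307822 bp, 21 at 351983 bp, 43 at 366868 bp, 82 at 370060 bp and 45 at 490080 bp. The highest was thus the farthest upstream, at chr5:51804716-51805519, and the 4 farthest downstream were all at or below 82. Of the 15, 8 were not constant-height, beside 2445 of all 9782 gene-desert peaks, and the median was 117. An insulin response word stood in the summit window of 2 of them, the windows shown above, which is 13.3% beside 15.0% of all gene-desert windows. Both windows were mostly soft-masked (64.5% and 65.0% of bases), and their peaks reached 107 and 43. Pck1, G6pc, Igfbp1, Mdm4 and Tkt had none.

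Summit sequence was compared with equally long flank windows, 1000 bp away on each side, in the 9772 gene-desert peaks with usable windows. A constant-height peak is near its maximum along its whole width, so its summit window marks a place in a block and no resolved summit. Summits were richer in GC, at 43.9% against 40.9% in the flanks, a difference of 2.95 points (2.79 to 3.11). The 20 to 100 kb class gave 47.4% and a difference of 2.81 points (2.68 to 2.95). The gains of the 2 classes differed by 0.139 points (-0.0732 to 0.350) over all shapes. Within each shape the desert gain was the larger, by 0.280 points (0.0353 to 0.524) in constant-height peaks and by 0.654 (0.244 to 1.06) in the others. The desert summits themselves were lower in GC than those at 20 to 100 kb (difference -3.56 points, -3.76 to -3.36). Within gene-desert peaks the gain was 5.25 points (4.91 to 5.58) in those that were not constant-height and 2.19 (2.005 to 2.37) in the others. With distance both levels fell, the summits from 45.3% at 100 to 200 kb to 41.5% beyond 1000 kb and the flanks from 42.6% to 37.2%.

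The AP-1 word TGACTCA was 1.97 times as frequent at summits as in flanks. It stood in 688 summit windows, 7.04% (6.55 to 7.56), and in 3.57% of flank windows, a difference of 3.47 points (2.90 to 4.05). In peaks that were not constant-height it was 9.64% (8.53 to 10.9) against 3.24%, and in constant-height peaks 6.18% (5.65 to 6.75) against 3.68%. Other distal classes held it at 7.72% (20 to 100 kb) and 7.85% (within 20 kb), and the desert share was below the latter by slightly more than the counting error (difference -0.808 points, -1.55 to -0.0659). Within each shape this difference spanned 0, at -0.336 points (-1.18 to 0.492) in constant-height peaks and -0.551 (-2.08 to 1.02) in the others. The excess over the flanks differed by -0.392 points (-1.17 to 0.383) from that at 20 to 100 kb and by -0.519 points (-1.35 to 0.313) from that within 20 kb, with both intervals spanning 0. Promoter summits held it in 4.87% and all peaks in 6.73%. The excess at gene-desert summits was larger than at promoters by 1.93 points (1.28 to 2.58).

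The share with an AP-1 word rose with the height of the peak. In peaks that were not constant-height it was 4.75% (3.33 to 6.74) in the lowest quartile of maximum signal, then 9.02% (6.99 to 11.6), 11.002% (8.76 to 13.7) and 13.8% (11.3 to 16.7) in the highest, with 3.03% to 3.78% in the flanks of all 4. In constant-height peaks it rose from 3.82% (3.03 to 4.80), beside 3.54% in flanks, to 7.80% (6.66 to 9.12), beside 3.41%. Over these quartiles the median width of constant-height peaks fell from 450 to 150 bp, while in the other peaks it stayed between 519 and 579 bp. The part of width in the rise was not tested. The windows with the word had a mean of 17.9% (16.2 to 19.5) soft-masked bases, against 32.1% (31.4 to 32.8) in those without. In the 218 peaks whose summit and both flanks had no masked base, 14.2% (10.2 to 19.5) of summits and 4.13% of flanks held it. The Cenpf window shown above holds it 2 times.

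When all 7-letter words were ranked by summit over flank share, counting a word together with its reverse complement and requiring at least 0.5% of flanks, TGACTCA ranked 4 of 5624. It ranked 9 of 5841 in peaks that were not constant-height, 3 of 5587 in constant-height ones and 11 of 6172 in the 20 to 100 kb class. What surrounded it in the ranking differed. Of the 12 leading words at gene-desert summits 8 consisted of only C and T or only A and G, led by CTCCCTC with 10.4% against 5.08%, although such words are 2.28% of those ranked. Of the 12 leading words in the 20 to 100 kb class 0 did, and all of them but TGACTCA held the letters CG.

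Tracts of at least 20 bases of only C and T or only A and G were therefore counted, a choice made after the ranking was seen. They stood in 1003 gene-desert summits, 10.3% (9.68 to 10.9), and in 5.80% of flanks. Most of the excess lay in peaks that were not constant-height, with 20.3% (18.8 to 22.0) against 6.31%, while constant-height peaks had 6.91% (6.36 to 7.52) against 5.63%. Among peaks that were not constant-height the desert share was above that of the 20 to 100 kb class (16.9%) by 3.44 points (1.505 to 5.42) and above that of promoters (9.02%) by 11.3 points (9.68 to 13.0). Among constant-height peaks it was below that of the 20 to 100 kb class (8.42%, difference -1.50 points, -2.33 to -0.666). Against promoters the difference in constant-height peaks spanned 0 (0.589 points, -0.121 to 1.32). Over all shapes the desert share was 1.01 points below that of the 20 to 100 kb class (difference -1.01, -1.82 to -0.187), and all peaks of the series held 9.47%. The 20 to 100 kb class had an excess of its own, with tracts in 11.3% of summits against 7.41% of flanks.

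Tracts went with low peaks and masked sequence. In peaks that were not constant-height the share was 24.8% (21.5 to 28.3) in the lowest quartile of maximum signal and 15.6% (12.9 to 18.7) in the highest. Windows with a tract had 59.9% (58.3 to 61.6) soft-masked bases against 27.8% (27.1 to 28.5) without. A tract and an AP-1 word stood together in 40 windows. The Prok2 and E130006D01Rik windows above show a tract of each kind in high peaks. How uniquely reads align in such sequence is not given by the files, and its part in these shares was not tested.

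**Figure D4:**
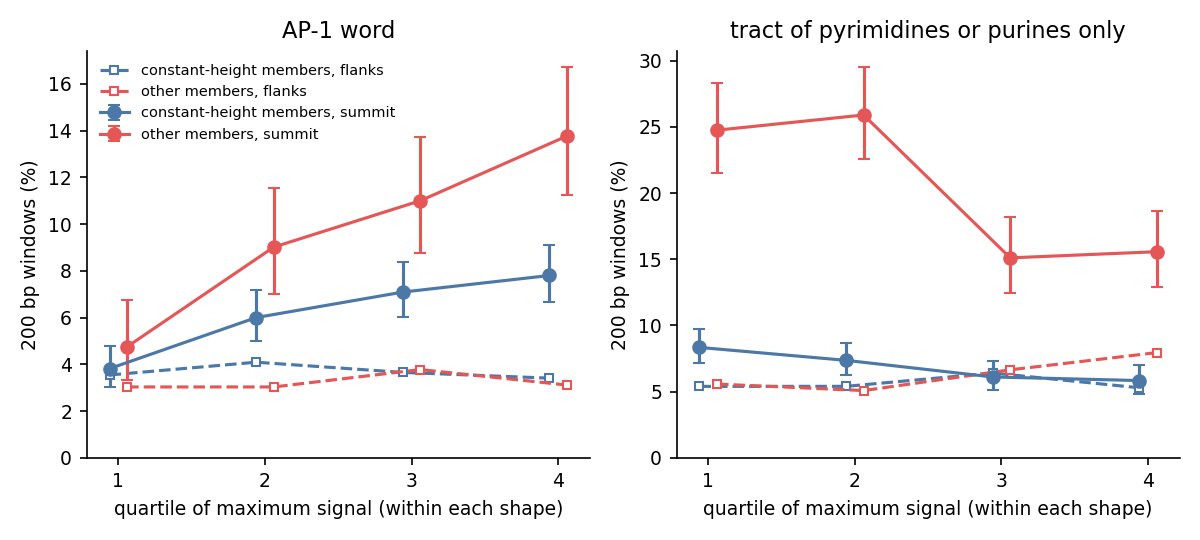
Share of 200 bp windows (y axes, percent) with an AP-1 word (left) or a tract (right) by quartile of maximum signal (x axes), for summits (circles, 95% Wilson intervals) and flanks (open squares) of constant-height and other gene-desert peaks. AP-1 rises from 4.75% to 13.8% in the other peaks, and tracts fall from 24.8% to 15.6%.

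The insulin response word was rarer at summits than beside them. Its forms TATTTTT and TATTTTG are mostly A and T, and summits were richer in GC than flanks. The part of base composition in this deficit was not tested. TATTTTT or TATTTTG stood in 15.0% (14.3 to 15.8) of gene-desert summits and 18.8% of flanks, a difference of -3.76 points (-4.65 to -2.87). It was more common than at 20 to 100 kb summits (10.2%), at promoters (6.93%) and over all peaks (9.97%), and so were the flanks. The deficit against the flanks differed from that at 20 to 100 kb by less than the counting error over all shapes (-0.0777 points, -1.20 to 1.04). Counted in points, it was deeper in deserts than at 20 to 100 kb in peaks that were not constant-height (difference -2.07 points, -3.99 to -0.144). The same held against those within 20 kb (difference -2.003 points, -3.96 to -0.0498). In constant-height peaks the difference from 20 to 100 kb spanned 0 (0.416 points, -0.948 to 1.78). The flank shares differ between classes. As summit over flank share, peaks that were not constant-height gave 0.598 in deserts, 0.642 at 20 to 100 kb and 0.621 within 20 kb. Constant-height peaks gave 0.857 in deserts against 0.776 at 20 to 100 kb, and all shapes together 0.8 against 0.734. The deficit at gene-desert summits was -6.70 points (-8.28 to -5.13) in peaks that were not constant-height and -2.78 (-3.85 to -1.72) in constant-height ones. By quartile of maximum signal, constant-height summits held the word in 18.9% and 18.5% of the lower 2 quartiles, beside 19.2% and 17.98% of flanks, and in 15.3% and 14.2% of the upper 2, beside 20.3% and 20.6% of flanks. The deficit of these peaks thus lay in the upper quartiles, whose peaks were also narrower. In the other peaks summits were below flanks in all 4 quartiles, with 8.85% against 17.1%, 11.5% against 16.8%, 8.70% against 16.1% and 10.8% against 16.6%. Where neither the summit nor the flanks had a masked base, the difference was -1.38 points with an interval that spans 0 (-5.45 to 2.70). The share rose with distance, from 12.9% at 100 to 200 kb to 19.3% beyond 1000 kb, and in the flanks from 16.1% to 27.7%. Peaks with the word were a little lower, with a median maximum signal of 88 (85 to 92) against 96 (95 to 97).

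**Figure D5:**
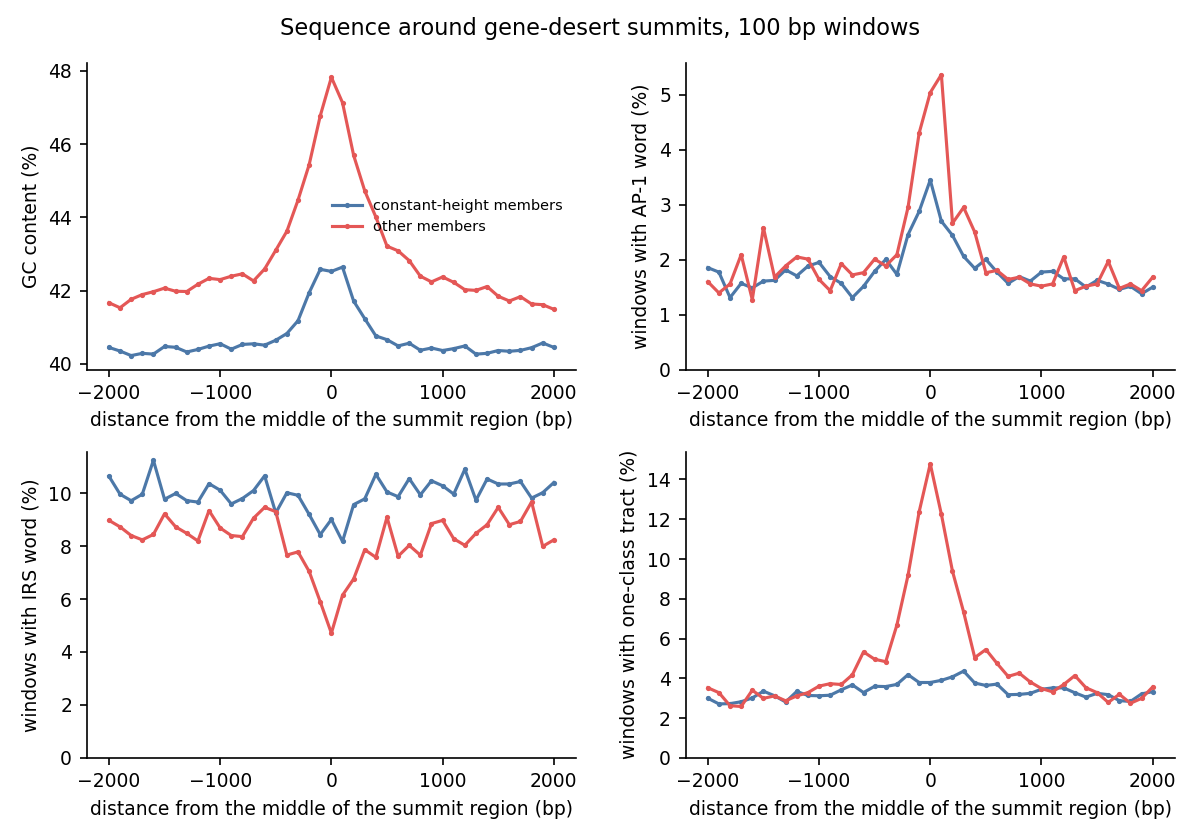
GC content and the share of 100 bp windows with an AP-1 word, an insulin response word (IRS) or a tract of pyrimidines or purines only (y axes, percent) by distance from the middle of the summit region in bp (x axes), for constant-height and other gene-desert peaks. GC and AP-1 are highest within 100 bp of the centre in both shapes. Tracts reach 14.8% at the centre of the other peaks and have no central maximum in constant-height ones (3.79% at the centre). The IRS share dips there, to 4.71% in the other peaks.

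The E-box CAGATG, a word of neuronal bHLH factors, stood in 17.4% of gene-desert summits against 14.5% of flanks (difference 2.85 points, 1.95 to 3.75), beside 17.8% at 20 to 100 kb, 13.7% at promoters and 16.7% over all peaks. Flanks held the E-box in 16.2% at 20 to 100 kb and in 14.3% at promoters. The excess at gene-desert summits was 3.43 points (2.39 to 4.47) in constant-height peaks and 1.11 points, with an interval that spans 0 (-0.673 to 2.89), in the others. A core word of CTCF (12 positions, some of them free) stood in 0.911% (0.741 to 1.12) of summits and 0.844% of flanks. It was more common at 20 to 100 kb (1.73%), within 20 kb (2.92%), at promoters (2.06%) and over all peaks (1.84%). The flanks of the first 3 classes also held it more often, at 1.36%, 2.19% and 1.78%. Summits exceeded flanks by 0.0665 points (-0.163 to 0.296) in deserts. The excess was 0.375 points (0.107 to 0.643) at 20 to 100 kb, 0.725 (0.330 to 1.12) within 20 kb and 0.281 (0.0680 to 0.494) at promoters. The word of NRF1, a promoter factor, was in 1 gene-desert summit, against 1.57% of promoter summits and 0.464% of all. The NFI word was in 0.440% against 0.246% of flanks. The MEF2 words, of which one contains TATTTTT, were in 0.246% against 0.123%. Over all peaks their shares were 0.624% and 0.218%. The CRE word TGACGTCA was in 14 summits (0.143%), against 0.611% at promoters and 0.300% over all peaks.

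Soft-masked bases, which mark repeats in the reference, made up 31.1% of gene-desert summits and 31.0% of their flanks (difference 0.0653 points, -0.577 to 0.708). At 20 to 100 kb summits had fewer than their flanks (26.7% against 29.1%). The near equality in deserts joined opposite signs, since summits exceeded flanks by 5.68 points (4.32 to 7.04) in peaks that were not constant-height and fell short of them in constant-height ones (difference -1.80, -2.52 to -1.08). The masked share was highest in low peaks. In peaks that were not constant-height, summits of the lowest quartile of maximum signal (6 to 61) were 57.5% (54.4 to 60.6) masked and those of the highest 21.1% (19.1 to 23.2). With distance the masked share of summits rose from 27.1% at 100 to 200 kb to 47.9% beyond 1000 kb, and that of flanks from 28.0% to 45.7%. An assembly gap of at least 10 kb lay within 100 kb of 70 gene-desert peaks (0.716%), whose median maximum signal was 97.5 (81 to 111).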

How the data were processed

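The data are 1 anti-FLAG CUT&Tag library whose peaks the authors called against 1 IgG library. Per the labels' protocols, reads were trimmed and aligned to mm10 with Bowtie2, low-quality and duplicate reads were removed, and peaks were called with SEACR. Versions and the SEACR settings are not given in the sources used here. The deposited values are signal (whole-number coverage, total and maximum per peak) with the annotation class and distance, whose transcript set is not stated. Depth is unknown.

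Here gene-desert peaks were selected by class and distance and compared with distal intergenic peaks at 20 to 100 kb, within 20 kb, promoter peaks (within 3 kb of a TSS) and all peaks. Words were searched on both strands of 200 bp windows of GRCm38.p6 with flanks 1000 bp away, and density was counted with GENCODE M21, placing each peak by its summit midpoint. Coordinates count from 1. Shares carry Wilson, differences of shares between classes Newcombe, means and summit-minus-flank differences normal, medians order-statistic and densities exact Poisson intervals, and the density ratio a log-normal one. Scripts, tested on simulated data, used Python 3.11.15, numpy 2.4.6, pandas 2.3.3, scipy 1.17.1 and pysam 0.24.0. The program that soft-masked the reference is not given in the sources used here.

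Genes named are those assigned to the 10 gene-desert peaks highest by maximum and the 10 highest by total signal on chromosomes 1 to 19 and X, the 10 with most such peaks, the 5 farthest peaks and at most 4 examples of each of 4 gene lists. An example that this rule names is not reported here. The coding genes beside them, the largest groups of peaks, the peaks at the threshold and the genes of the marker check are named as well. The class, the lists and the tests were chosen with earlier results of these data known. Alternatives covered the distance threshold, the TSS set, signal and width minimums, chromosomes, shape, windows, flanks, masking and neighbour distance. Peaks of 1 library are not replicates, so no p-value was computed.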

Additional observations from a re-analysis of the deposited data

How the results depend on the processing

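The 8 results were recomputed under 69 alternatives. Of these 20 left the value within its counting interval, 49 moved it and 0 reversed a value whose interval excluded 0 as reported. Shares, medians and the density ratio cannot turn negative, so a reversal was possible only for the GC, insulin response and AP-1 differences. The alternatives for the AP-1 word were chosen after seeing the data. The cause of a move was not tested. No paired analysis was possible because each antibody has 1 library. The number of peaks makes intervals narrow, and error between animals or libraries is not in them.

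With peaks beyond 50 kb, constant height was 72.6%, masked bases -0.629 points, a neighbour within 10 kb 42.9% and the density ratio 0.363. Beyond 200 kb these were 77.6%, 0.784 points, 31.3% and 0.305, and the median maximum signal 93. More than 100 kb from any GENCODE start they were 76.5%, 1.17 points, 33.0% and 0.352, with the insulin response word at -4.71 points. Above the median maximum signal of all peaks, constant height was 68.7%, the median 130, GC 3.65 points, the insulin response word -6.36, masked bases -2.78, neighbours 23.8%, the density ratio 0.296 and AP-1 5.77 points. In peaks at least 200 bp wide these were 65.6%, 83, 2.62, -2.87, 1.22, 30.1%, 0.303 and 2.67. Without constant-height peaks the median was 114, GC 5.25, the insulin response word -6.70, masked bases 5.68, neighbours 23.1%, the density ratio 0.223 and AP-1 6.40. On chromosomes 1 to 19 the density ratio was 0.348.

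Windows of 400 bp gave GC 2.64, the insulin response word -4.69 and AP-1 5.71 points. Flanks at 2000 bp gave GC 3.12 and masked bases -1.48. Windows without masked bases gave the insulin response word -1.38 and AP-1 10.1. A looser ratio threshold (0.95) and a stricter one gave constant-height shares of 76.9% and 72.2%. Neighbours within 5 and 50 kb were 24.8% and 76.1%. The masked-base difference, whose interval spans 0 as reported, took either sign with the peaks and flanks used. Its interval lay below 0 beyond 50 kb, above the median signal and with flanks at 2000 bp, and above 0 in peaks at least 200 bp wide and without constant-height peaks. The insulin response word stayed rarer and the AP-1 word and GC higher at summits under all alternatives run, except that the interval of the first spanned 0 in windows without masked bases.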

Other observations

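Peaks that the annotation assigned far from a gene could still stand close to another gene's end. Within 50 kb of a protein-coding gene body lay 519 gene-desert peaks (5.31%, 4.88 to 5.77), and within 100 kb 1169. In intervals of at least 500 kb without coding genes the AP-1 word stood in 6.97% (6.41 to 7.56) of summits against 3.52% of flanks, and in shorter intervals in 7.32% (6.31 to 8.47) against 3.73%. GC content of summits was 43.2% (43.1 to 43.4) in the former and 46.0% (45.7 to 46.2) in the latter, and the median maximum signal was 95 in both.

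Groups of gene-desert peaks beyond the largest 3 held 9 peaks at Eef2kmt, 8 each at Gm10440, at Ptpru, a receptor tyrosine phosphatase, at Syt13, a synaptotagmin, at Frmd6 and at 1700028D13Rik, and 7 at A930031H19Rik, at Tox3, an HMG-box gene, and at A730004F24Rik. Of the 7 at Tox3 5 were not constant-height, with maximum signals from 81 to 248 in 12.9 kb, and of the 8 at Ptpru 6 were not, with values from 24 to 233 in 37.5 kb.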
